A study of Caenorhabditis elegans with 2 samples.

Results

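Ranked peaks of NHR-120::GFP whose summit lies within 250 bp of the 5′ end of a piRNA gene numbered 1912 of 115573 peaks in the joint ranked list, or 1.65%. These peaks were chosen by position alone: 1984 summits met the distance, and 72 of them were left out because a tRNA, snoRNA, snRNA or miRNA gene starts within 1 kb. Of the 1912, 1396 lay in the 2 chromosome IV windows that hold the piRNA clusters, with 512 between 4.5 and 7.0 Mb (the lower window) and 884 between 13.5 and 17.2 Mb (the upper window). The other 516 lay outside the windows, 176 of them on the rest of chromosome IV and 340 on other chromosomes. The comparison set on chromosome IV was the 15580 ranked peaks that have neither a piRNA 5′ end within 250 bp nor a short RNA gene start within 1 kb.

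The data come from chromatin immunoprecipitation with sequencing of whole C. elegans young adults, in 1 group with 2 biological replicates taken at 64 hours after synchronisation by bleaching and starvation at the L1 stage. All worms were of strain OP415, which carries the integrated fosmid transgene wgIs415, making NHR-120, a nuclear hormone receptor, fused to TY1, EGFP and 3xFLAG tags, with unc-119(+) as rescue of the unc-119(tm4063) mutation. Sonicated chromatin was precipitated with an antibody to GFP, per the description, although the antibody field of the labels names nhr-120. No strain without the transgene is among the samples, and a possible control that the labels name was not analysed here. Whole animals were used, so germline and somatic chromatin cannot be told apart. The signal of a peak is the authors' value on a scale that is not stated, and no read counts accompany it. Depth is therefore unknown, and levels are compared only with other peaks of the same list.

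The ranked lists reach far below the authors' threshold. Of the 115573 joint peaks, 0.612% had an irreproducible discovery rate (IDR) of at most 0.01 over the whole list. The IDR measures how well the rank of a peak repeats between lists that were compared, and 0.01 is the limit that the thresholded lists show. In the ranked lists of single replicates this share was 0.254% of 60719 peaks for replicate 1 and 0.247% of 58785 peaks for replicate 2. Most of the peaks described here are therefore ranked candidates below the authors' limit and not called binding sites.

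piRNAs of C. elegans, also named 21U-RNAs, are short germline RNAs that begin with U and guide the Piwi protein PRG-1 to transcripts that are then silenced. Most are encoded by very small genes in clusters on chromosome IV, each transcribed from its own promoter by RNA polymerase II. A motif with the core letters GTTTC lies upstream of most of them, and the clusters are bound by a complex that includes PRDE-1 and SNPC-4. In the annotation used here all 15363 piRNA genes are 21 bases long, and 14204 of them lie in the windows, 2816 in the lower and 11388 in the upper. A further 510 lie on the rest of chromosome IV and 649 on other chromosomes, and the gene begins with T in 96.2% of all. The motif GTTTC, searched on the strand of the gene wholly within 60 to 30 bases before its 5′ end, was present at 72.7% of all piRNA genes, against 5.69% of the starts of 19973 protein-coding genes in the same window of bases. The share was 74.3% in the windows, 63.9% on the rest of chromosome IV and 42.8% on other chromosomes. The longer form TGTTTCA, which contains GTTTC, was present at 47.8%, 41.6% and 19.0% of these genes, and at 0.621% of protein-coding starts.

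The piRNA genes nearest to the 5 peaks that passed the IDR limit are shown first, each with the 60 bases before its 5′ end, from the RefSeq genome sequence of build WBcel235, in the direction of transcription. Capitals mark the 21 bases of the piRNA and the GTTTC motif.
21ur-11151 (chrIV:15530867-15530947, - strand): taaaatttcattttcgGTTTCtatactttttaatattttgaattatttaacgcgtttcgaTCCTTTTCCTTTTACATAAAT
21ur-6476 (chrIV:17182046-17182126, + strand): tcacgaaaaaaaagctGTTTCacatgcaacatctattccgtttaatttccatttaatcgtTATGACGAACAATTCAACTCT
21ur-6325 (chrIV:15729563-15729643, + strand): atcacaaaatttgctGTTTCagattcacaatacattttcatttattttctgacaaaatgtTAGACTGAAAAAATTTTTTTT
21ur-14912 (chrIII:5507998-5508078, - strand): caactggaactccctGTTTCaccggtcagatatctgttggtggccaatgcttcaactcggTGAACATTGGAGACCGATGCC
21ur-15219 (chrIV:15565140-15565220, - strand): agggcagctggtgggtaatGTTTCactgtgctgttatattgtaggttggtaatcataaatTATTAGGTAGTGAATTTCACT
In all 5 the motif was present, as at 72.7% of all piRNA genes, its first base 41 to 45 bases before the 5′ end. It lies inside the peak at 21ur-14912 and 21ur-15219. At 21ur-11151, 21ur-6476 and 21ur-6325 it lies outside the peak. The bases before 21ur-11151 held 21.7% GC and those before 21ur-14912 held 51.7%. The summit of the peak near 21ur-14912 lies inside a protein-coding exon on chromosome III. The next sequences show the genes at the peak with the highest signal on the rest of chromosome IV and at that of the lower window. Neither holds GTTTC in this window of bases, which says only that these letters are not there.
21ur-12255 (chrIV:7397698-7397778, - strand): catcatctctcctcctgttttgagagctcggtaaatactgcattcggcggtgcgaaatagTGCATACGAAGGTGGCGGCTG
21ur-7043 (chrIV:5970998-5971078, - strand): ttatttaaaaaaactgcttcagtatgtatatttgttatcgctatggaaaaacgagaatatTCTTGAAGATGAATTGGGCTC

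Whole peaks are shown for the strongest piRNA-gene peak and for the peak that holds the most piRNA genes among those past the limit, both on the forward strand, with piRNA bases in capitals. The strongest peak contains no piRNA gene, since the summit lies 163 bp downstream of the 21ur-11151 5′ end and the piRNA itself starts beyond the edge of the peak. The second contains 5 piRNA genes, 21ur-3854, 21ur-15219, 21ur-15111, 21ur-8226 and 21ur-14539, whose bases overlap and so form 2 runs of capitals.
Strongest peak (chrIV:15530592-15530855): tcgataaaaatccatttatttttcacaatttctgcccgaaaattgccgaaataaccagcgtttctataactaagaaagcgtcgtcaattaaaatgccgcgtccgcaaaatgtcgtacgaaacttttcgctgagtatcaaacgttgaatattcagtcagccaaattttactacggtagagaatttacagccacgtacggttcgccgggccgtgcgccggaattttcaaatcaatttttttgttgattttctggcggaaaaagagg
Peak with 5 piRNA genes (chrIV:15565123-15565386): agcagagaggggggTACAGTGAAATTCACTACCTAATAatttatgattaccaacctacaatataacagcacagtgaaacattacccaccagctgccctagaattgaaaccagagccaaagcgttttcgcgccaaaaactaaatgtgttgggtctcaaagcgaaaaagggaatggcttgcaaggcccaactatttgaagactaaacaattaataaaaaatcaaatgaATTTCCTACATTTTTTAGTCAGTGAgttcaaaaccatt

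Peaks at piRNA genes of the chromosome IV clusters had slightly lower signal than other ranked peaks of the chromosome, and about the same signal as peaks at piRNA genes elsewhere. In the joint list the cluster peaks had a median signal of 20.3 (quartiles 13.1 and 28.4), with 20.2 in the lower and 20.3 in the upper window. The other peaks on chromosome IV had a median of 22.9 (quartiles 14.4 and 32.4), which is also the median of all ranked peaks. The ratio of the cluster peaks to the other chromosome IV peaks was 0.888 in the joint list, 0.937 in replicate 1 and 0.949 in replicate 2, so both replicates lay on the same side of 1. At like GC the direction did not hold throughout: the joint ratio was 0.979, 1.01 and 1.04 in peaks of low, middle and high GC. The quartile ranges of the groups overlap over most of their length in every list. With 2 replicates and 1 group no test was made, and the peaks are not replicates of a condition.

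piRNA genes outside the windows gave a median signal of 21.0 in the joint list, with 21.5 on the rest of chromosome IV and 20.7 on other chromosomes. The ratio of cluster peaks to these peaks was 0.968 in the joint list, 0.991 in replicate 1 and 0.986 in replicate 2. Against the peaks on the rest of chromosome IV alone (176 in the joint list, 97 in replicate 1 and 87 in replicate 2) the order was not the same in every list: the ratio was 0.944 in the joint list, 1.00 in replicate 1 and 1.07 in replicate 2. In the replicates, the medians of the cluster peaks were 15.6 and 16.5, those of the peaks on the rest of chromosome IV 15.5 and 15.3, and those on other chromosomes 16.3 and 17.4. The sign of the difference from the piRNA genes of chromosome IV outside the windows thus changed between lists.

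**Figure D1:**
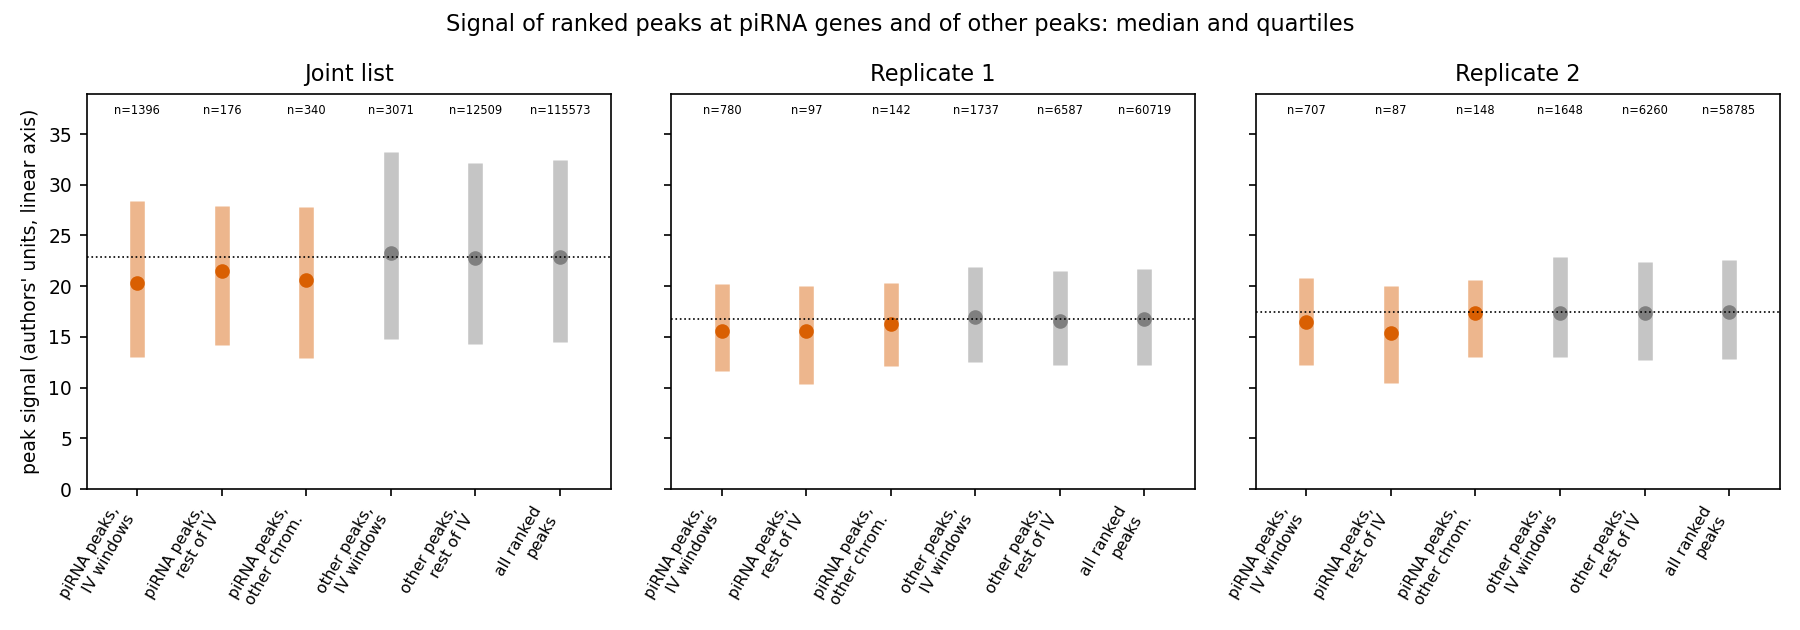
Median (point) and quartiles (bar) of the authors' peak signal on a linear axis, for peaks at piRNA genes (orange) and other ranked peaks (grey) in the joint list and each replicate list, with the number of peaks above each bar. The dotted line is the median of all ranked peaks of that list, 22.9, 16.7 and 17.4, and the medians of the cluster peaks lie below it at 20.3, 15.6 and 16.5 while the quartile bars overlap.

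The plot of group medians shows the same small shift in the upper range of the signal. Of the 1912 peaks at piRNA genes, 788 (41.2%) lay above the median of the joint list, 324 (16.9%) lay above its upper quartile and 118 (6.17%) among the strongest 10% of its peaks. Among the strongest 1% were 8 (0.418%). The highest signal at a piRNA gene was 89.1. It was 452 among the 15580 other peaks on chromosome IV and 232 among the 3071 of these inside the windows. A highest value tends to rise with the size of a set, and these sets are larger. The 72 peaks left out for a short RNA gene nearby had a median of 24.0 and a highest signal of 100.1, and 2 of them passed the IDR limit.

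Few piRNA-gene peaks reached the authors' limit. In the joint list 5 of 1912 had a global IDR of at most 0.01, a share of 0.262% (95% Wilson interval 0.112 to 0.611%), beside 0.612% of all ranked peaks and 0.480% of ranked peaks with no short RNA gene nearby. The interval, which covers counting error only, contains the second of these backgrounds. Of the 5, 4 lay in the upper window, where they made 0.452% of 884 peaks, and 1 lay on chromosome III. None of the 512 peaks of the lower window passed, which allows a share of up to 0.586% taken as 3 counts of the total. The Wilson interval for it reaches 0.745%. Among other peaks on chromosome IV the share was 0.591% (92 of 15580), and 0.814% among the 3071 of these inside the windows. In the other joint ranked list, 4 of 1889 piRNA-gene peaks passed 0.01, beside 0.566% of its 114571 peaks. Among its other peaks with no short RNA gene nearby the share was 0.444%. At the looser limit of 0.05, 19 of the 1912 piRNA-gene peaks passed, and 12 of the 1396 in the windows. This stands beside 2982 (2.58%) of all 115573 ranked peaks, which include those near short RNA genes. A share without the latter was not computed at this limit.

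In the single replicates almost none passed. Replicate 1 had 0 of 1019 piRNA-gene peaks past 0.01, which allows up to 0.294%, beside its background of 0.254%, and 0 also overlapped its thresholded list of 89 peaks. Replicate 2 had 1 of 942 (0.106%), beside 0.247%, at a piRNA gene on chromosome I, and the same number overlapped its thresholded list of 96 peaks. These backgrounds include peaks near short RNA genes. Among other peaks without such a gene nearby they were 0.192% in replicate 1 and 0.190% in replicate 2. Of the 1912 joint piRNA-gene peaks, 5 (0.262%) overlap the joint thresholded list by at least 1 bp, beside 0.546% of all ranked peaks. With the conservative list 4 of the 1912 overlap, beside 0.493%. The 5 are the same peaks that passed 0.01, so their overlap is no separate result. Over the whole joint list 707 peaks passed 0.01 and 631 overlapped the thresholded list, so passing 0.01 does not by itself give overlap. Overlap with the replicate lists was smaller than for other peaks. Both replicate lists had a peak at 331 (17.3%) of the piRNA-gene peaks, against 26.4% of other chromosome IV peaks, and neither had one at 751 (39.3%), against 28.9%. Peaks matched in both replicates had a median joint signal of 34.1, and those matched in neither had 14.6. No test of these shares was made.

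The strongest piRNA-gene peak was near 21ur-11151 in the upper window (chrIV:15530592-15530855), with a signal of 89.1 in the joint list, 43.7 in replicate 1 and 45.5 in replicate 2. It lay in the top 0.581% and 0.641% of the ranked peaks of the replicates, which its choice by joint signal favours. Its global IDR was 0.00179 and the summit was intergenic, 2196 bp upstream of ari-1.4. Of its 30-base words, 52.3% occur more than once in the genome, so reads there may be shared with other copies. The peak near 21ur-6476 (chrIV:17182099-17182362) reached 75.2, with 34.7 and 41.2 in the replicates. It lies in an exon of C52D10.3, 1498 bp downstream of the start of the collagen gene col-138, and holds 52.7% GC within 100 bp of the summit. The peak near 21ur-6325 (chrIV:15729682-15729945) reached 73.9, with 34.6 and 35.6 in the replicates, and 56.6% of its words are repeated.

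The only peak past the limit outside chromosome IV was near 21ur-14912 on chromosome III (chrIII:5507846-5508109), with a signal of 73.5, and 36.6 and 42.5 in the replicates. Its summit lies 40 bp downstream of the piRNA 5′ end, inside an exon of D1044.7 and 791 bp from the start of that gene. The peak that holds 5 piRNA genes, named by 21ur-15219 (chrIV:15565123-15565386), had 70.1 in the joint list, 29.0 in replicate 1 and 41.1 in replicate 2. It lies 828 bp upstream of Y105C5A.1 and ranked in the top 6.68% of replicate 1 and the top 1.09% of replicate 2. Its IDR of 0.00986 was just inside the limit, and it is the member that the conservative list lacks.

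**Figure D2:**
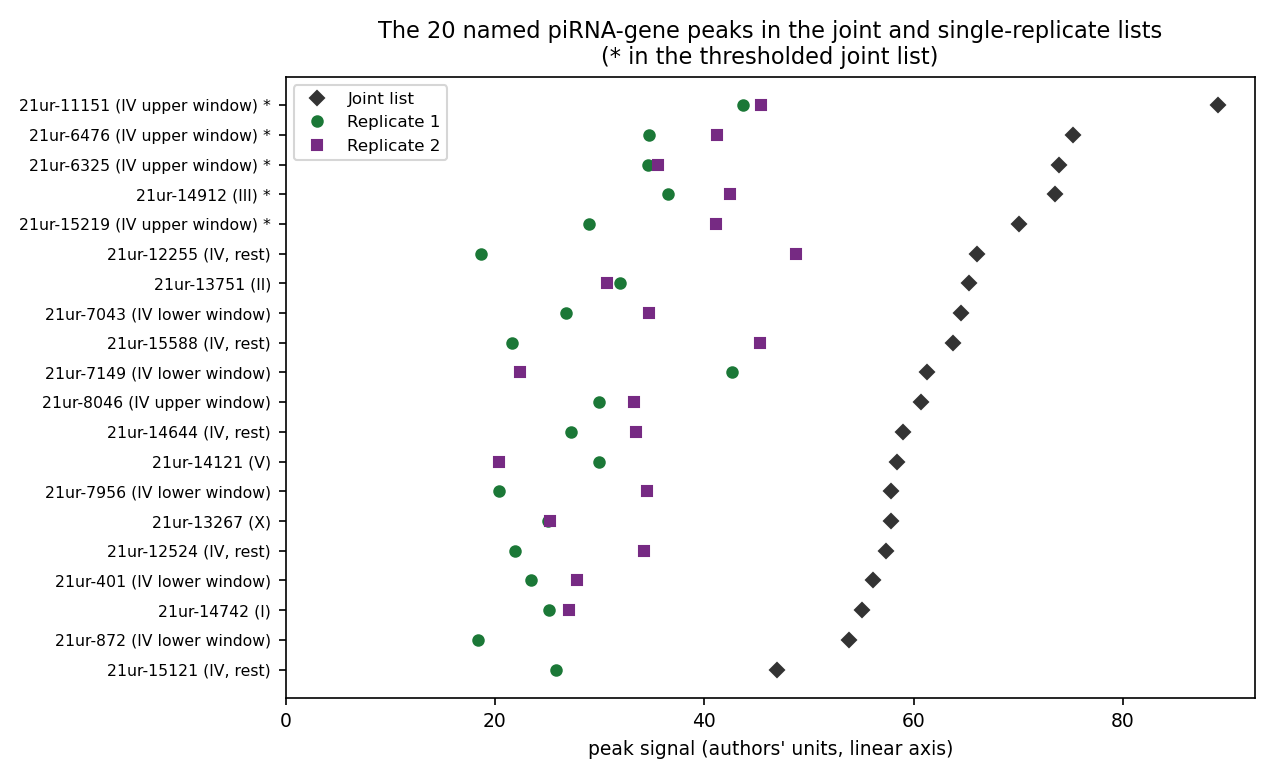
Authors' peak signal on a linear axis of the 20 piRNA-gene peaks named by rule, the 5 with the highest joint signal in each of 4 regions, in the joint list (diamonds), replicate 1 (circles) and replicate 2 (squares). The starred 5, those in the joint thresholded list, lie between 70.1 and 89.1 in the joint list, and the lowest 2 rows have no replicate 2 peak.

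Below the limit, some named peaks held different ranks in the replicates and others held like ranks. The highest on the rest of chromosome IV, near 21ur-12255, had 66.0 in the joint list, 18.7 in replicate 1 and 48.8 in replicate 2, which placed it in the top 38.9% and the top 0.454% of the replicate lists. The peak near 21ur-15588, in an exon of sec-61.B, which encodes a subunit of the channel that moves proteins into the endoplasmic reticulum, had 63.8, and lay in the top 25.4% of replicate 1 and the top 0.658% of replicate 2. The peak near 21ur-7149 in the lower window went the other way, in the top 0.655% of replicate 1 and the top 25.7% of replicate 2. By contrast, the peak near 21ur-13751 lay in the top 3.66% and 6.36%, and that near 21ur-13267 in the top 14.1% and 16.3%. The signal in replicate 1 ranged from 18.4 to 43.7 over the 20 named peaks, and their order in the joint list was not that in either replicate. Of the 20, all had a peak in replicate 1 and 18 had one in replicate 2. The 2 without were near 21ur-872 and 21ur-15121. The 20 were chosen for high signal in a list derived from both replicates. These counts therefore largely follow from that choice and are no separate support. Among other ranked peaks genome-wide, chosen without regard to signal, 25.8% had a peak in both.

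Some of the named peaks lay in or near protein-coding genes, and others lay more than 1 kb from any protein-coding start. The peak near 21ur-7956 had 57.9 in the joint list and lay in an exon 81 bp from the start of lam-1, which encodes a laminin of the basement membrane. That near 21ur-14121 had 58.5 and lay 110 bp from the start of argk-1, an arginine kinase gene on chromosome V. The peak near 21ur-13751 had 65.3 and lay 413 bp upstream of vig-1 on chromosome II, and that near 21ur-872 had 53.8 and lay 179 bp upstream of tni-4, a troponin I gene. For 2 named peaks of the lower window the nearest coding start was that of unc-44, which encodes an ankyrin. They lay between genes, 4310 and 1623 bp upstream of it, near 21ur-7043 with 64.5 and near 21ur-401 with 56.1. Over the whole set, 31.2% of the cluster peaks and 49.4% of the piRNA-gene peaks elsewhere had a protein-coding start within 1 kb, against 45.3% of the other peaks on chromosome IV. Binding at a piRNA promoter and binding at such a neighbouring gene cannot be told apart from a summit within 250 bp.

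Within the windows, ranked summits were sparse next to piRNA 5′ ends. The sequence within 250 bp of a 5′ end makes up 50.4% of the window bases, leaving out those within 1 kb of a short RNA start, but held 31.3% of the joint summits. This is 460 summits per Mb, against 1026 per Mb in the rest of the windows. Replicate 1 had 257 against 580 per Mb and replicate 2 had 233 against 550 per Mb, so the lower density was seen in each. Fewest lay just upstream of the 5′ end, where piRNA promoters are: 312 per Mb in the 50 bases before it and 317 per Mb in the 50 before those. The density was 831 per Mb at 200 to 249 bases downstream and 696 per Mb at 201 to 250 bases upstream. The mean GC of the sequence moved with it, from 27.7% just upstream of the 5′ end to 33.9% at 200 to 249 bases downstream.

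**Figure D3:**
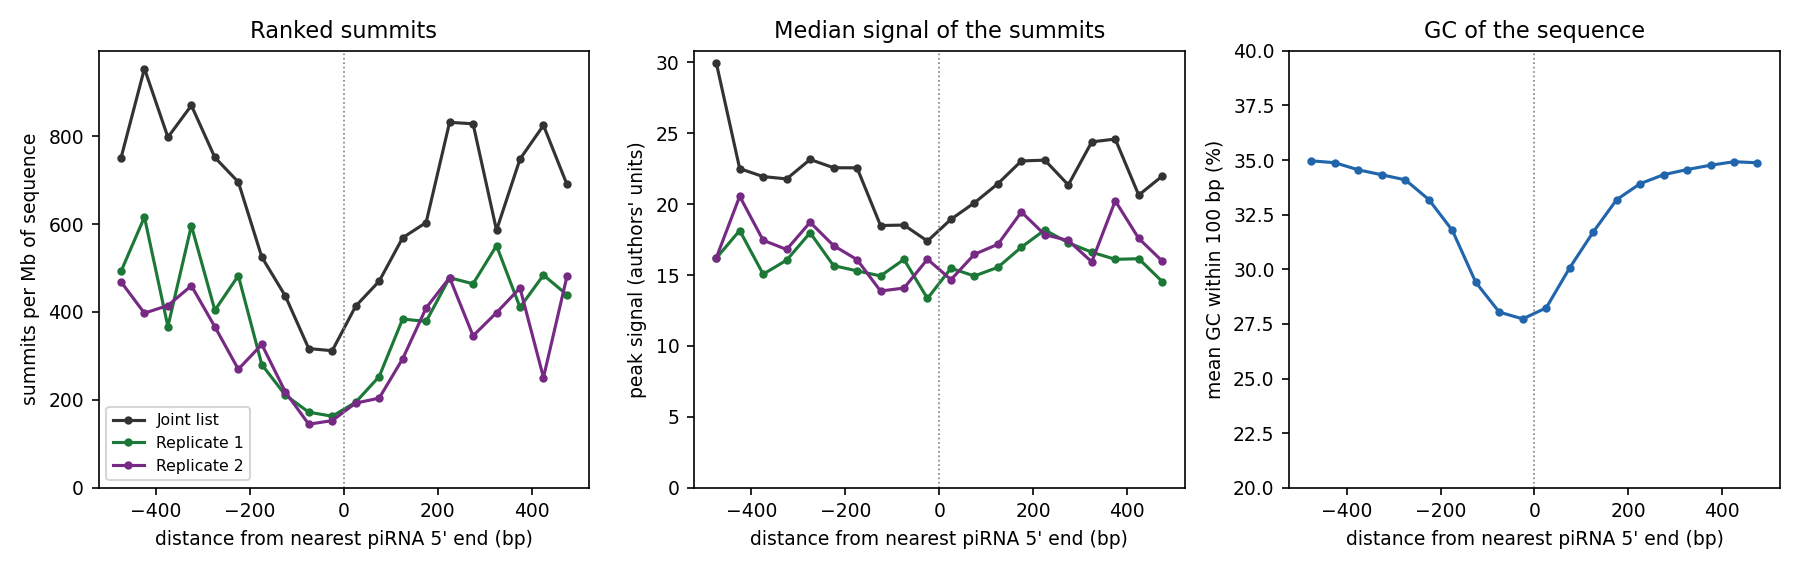
Ranked summits per Mb (left, linear axis), their median signal in the authors' units (middle) and the mean GC of the sequence within 100 bp (right, axis from 20 to 40%) in 50-base bins of the distance to the nearest piRNA 5′ end in the chromosome IV windows, negative values upstream, for the joint list and both replicates. In the joint list density, signal and GC are lowest in the bin just upstream of the 5′ end, at 312 summits per Mb, a signal of 17.4 and 27.7% GC, and the outermost bins hold few summits.

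In the joint list the signal of the peaks followed the same course as the plotted density. In replicate 1 it was also lowest in the bin just upstream of the 5′ end, at 13.3. In replicate 2 the lowest bin was 101 to 150 bases upstream, at 13.9, against 16.1 just upstream. Summits within 50 bp of a 5′ end in the windows had a joint median of 18.4, and the median was 19.9 at 51 to 100 bp, 20.5 at 101 to 150 bp, 22.5 at 151 to 200 bp and 23.3 at 201 to 250 bp. Replicate 1 went from 14.0 in the nearest band to 16.8 in the farthest, and replicate 2 from 15.2 to 17.8. In the windows the joint values on both sides of the distance limit were close: 23.3 for the 215 peaks at 201 to 250 bp and 22.6 for the 171 at 251 to 300 bp. Outside the windows they were farther apart, at 21.8 (113 peaks) and 24.3 (103 peaks). The GC within 100 bp of the summit rose over the same bands in the windows, from a median of 29.9% to 37.8%.

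In the joint list, peaks with 3 or more piRNA genes nearby had lower signal than those with fewer. Of the cluster peaks, 641 had 1 piRNA 5′ end within 250 bp and a joint median of 21.1, 374 had 2 and a median of 21.4, 211 had 3 and a median of 17.6, and 170 had 4 or more, up to 8, and a median of 18.6. In replicate 1 the medians in this order were 16.4, 14.8, 15.5 and 13.7, and in replicate 2 they were 16.7, 15.1, 16.5 and 16.0, so the order was not the same in each. The median GC fell over these classes from 35.3% to 28.9% in the joint list. Median signals were close with and without the motif before the nearest piRNA gene. The median was 20.3 for 1072 cluster peaks whose nearest piRNA gene has GTTTC and 20.2 for 324 without. In replicate 1 it was 15.6 in both, and in replicate 2 it was 16.3 with and 16.6 without.

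A smaller share of the piRNA genes in the clusters than of those elsewhere had a ranked peak nearby. A joint peak of the set lay within 250 bp of 3064 (19.9%) of all 15363 piRNA genes, and neighbouring genes share peaks. The share was 26.2% in the lower window, 16.0% in the upper window, 38.4% on the rest of chromosome IV and 47.8% on other chromosomes. In the windows 77.4% of the genes with a peak and 73.7% of those without carried GTTTC. For TGTTTCA these shares were 47.1% and 47.9%, in the other order. No test was made of these shares, since genes of a cluster share their peaks and their surroundings.

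The GC content of the sequence differed between the groups that were compared. The median within 100 bp of the summit was 33.3% for cluster peaks, 35.8% for piRNA-gene peaks elsewhere and 38.8% for other peaks on chromosome IV. With the joint list split into 3 equal classes at 35.8% and 41.8% GC, 61.7% of the cluster peaks fell in the lower class, against 32.0% of the other peaks on chromosome IV. Within these classes the ratio of cluster peaks to other chromosome IV peaks was 0.979 in the lower, 1.01 in the middle and 1.04 in the upper class. It was 0.990, 0.999 and 1.01 in replicate 1, and 0.952, 1.06 and 0.998 in replicate 2. The lower signal of the cluster peaks was therefore not seen in the middle and upper GC classes of the joint list. The classes were chosen after seeing the data.

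**Figure D4:**
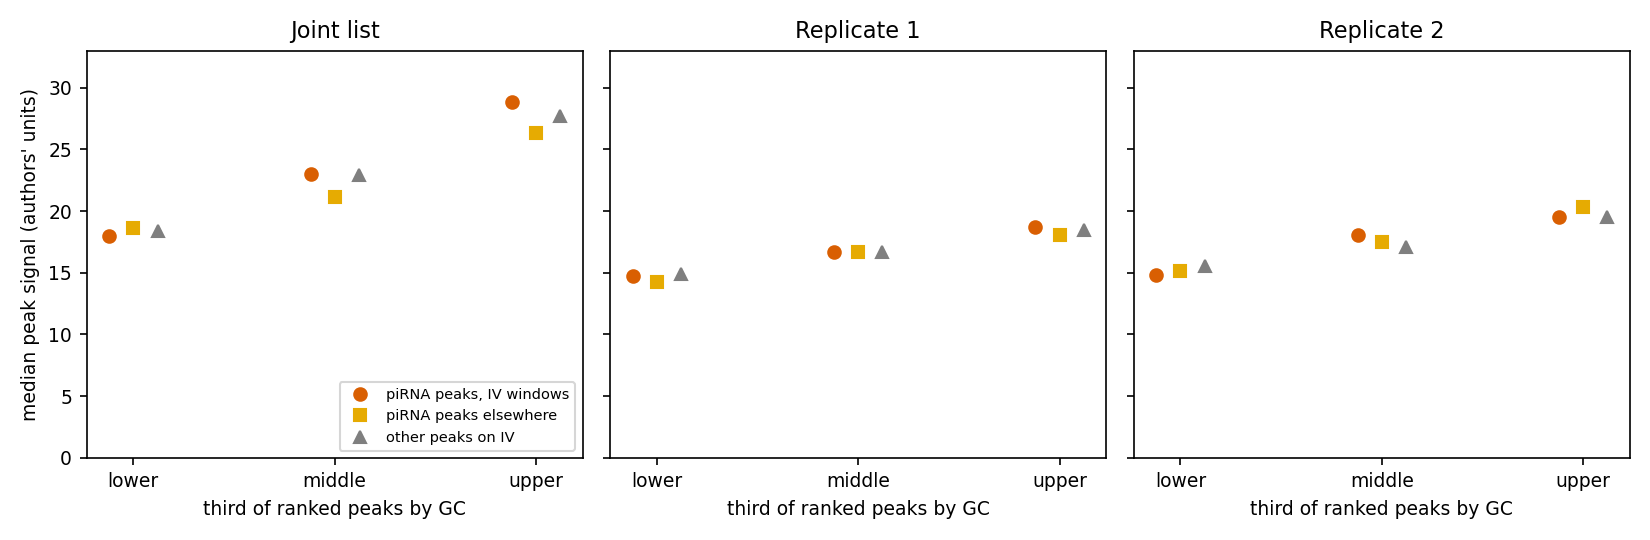
Median peak signal in the authors' units on a linear axis, by GC class of the ranked list, for cluster peaks (circles), piRNA-gene peaks elsewhere (squares) and other chromosome IV peaks (triangles) in the joint list and each replicate. Signal is higher at higher GC in all groups, from 18.0 to 28.9 for the cluster peaks of the joint list. In the upper class of that list the medians are 28.9 for cluster peaks, 26.3 for piRNA-gene peaks elsewhere and 27.7 for other chromosome IV peaks.

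Across the 1396 cluster peaks, Spearman's correlation between signal and GC was 0.343 in the joint list, and it was 0.219 and 0.293 in the replicates. It was 0.306, 0.215 and 0.253 across the other peaks on chromosome IV, as the plot of GC classes also shows. The correlation of signal with distance to the 5′ end was weaker, 0.174, 0.131 and 0.155, and GC and distance were themselves correlated at 0.443, 0.424 and 0.505. These values describe peaks of the same libraries, which are not independent, so they carry no p. The density of summits was also compared at like GC. In sequence below 25% GC it was 168 per Mb near piRNA 5′ ends and 236 per Mb in the rest of the windows, and at 25 to 30% GC it was 291 and 432 per Mb. At 30 to 35% GC it was 522 and 758 per Mb, and at 35 to 40% GC 855 and 1111 per Mb. At 40 to 45% GC it was 1382 and 1505 per Mb, and at 45% or more it was 1968 and 1969 per Mb. In the replicates the density at 30 to 35% GC was 288 against 382 and 258 against 310 per Mb, and it was lower near piRNA 5′ ends in every band below 40% GC. At 40 to 45% GC it was 782 against 937 per Mb in replicate 1 and 812 against 806 in replicate 2. At 45% or more, a band with 1.71% of the bases near 5′ ends, it was higher there in both, 1408 against 1296 and 1736 against 1336 per Mb.

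Cluster peaks also lay in other places than the rest of the chromosome. Summits were in exons in 21.3%, in introns in 29.4% and between genes in 49.3%, against 38.7%, 30.6% and 30.7% of the other peaks on chromosome IV. Within these places the ratio of joint medians to other chromosome IV peaks was 0.940 in exons, 0.901 in introns and 0.913 between genes. Against piRNA-gene peaks elsewhere it was 1.04 in exons, 0.929 in introns and 1.05 between genes. This second ratio was 1.09, 1.00 and 0.921 in the same order in replicate 1, and 0.954, 0.888 and 1.11 in replicate 2. The replicates thus lay on opposite sides of 1 in exons and between genes. Repeated words made up more than 10% of the peak in 13.2% of the peaks of the upper window, 3.91% of those of the lower window and 16.9% of the other peaks on chromosome IV.

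Genes that make or use piRNAs had ranked peaks near their starts, as most protein-coding genes did. Of 23 listed genes 21 were matched by name. All 21 had a joint ranked peak within 1 kb of a start, as had 17792 of 19973 protein-coding genes. Of the 21, 0 passed an IDR of 0.01, which allows a share of up to 14.3%. This stands beside 1.74% of 19973 protein-coding genes, so nothing is read from the 0. prg-2 and tofu-3 were not matched. The strongest peak per gene had a median signal of 36.0, from 17.8 to 48.2, beside 34.4 for the 17792 protein-coding genes with a ranked peak. prg-1, which encodes the Piwi protein that binds piRNAs, had 47.9 in the joint list, 26.1 in replicate 1 and 17.3 in replicate 2. snpc-4, which encodes a subunit of the complex at the promoters, had 34.0, with 26.0 and 18.9 in the replicates. prde-1, whose protein acts with it at the clusters, had 18.2, no peak in replicate 1 and 13.9 in replicate 2. The highest value was 48.2 at tofu-4, whose protein belongs to the same complex, with 27.0 and 28.7 in the replicates. Among the processing factors, parn-1, which encodes the enzyme that trims the 3′ end of piRNAs, had 41.1, and henn-1, which encodes the methyltransferase of that end, had 33.2.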

How the data were processed

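The deposited files are 8 peak lists on assembly ce11 (WBcel235), of which 4 are ranked. Neither aligner nor peak caller is given in the sources used here. Per peak, the deposited ranked lists hold a signal value, whose scale nothing states, and the −log10 of the global IDR. Which lists the authors compared to obtain the IDR of the joint list is not known. With no counts in the lists, depth per sample and the precision it gives are unknown. Tracks and the paired signal columns were not used.

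Summits were set against gene starts of Ensembl release 115, and sequences were read from the RefSeq genome. Computed with Python 3.11.15, NumPy 2.4.6 and pandas 2.3.3 were medians and ratios of signal, counts past an IDR of 0.01, 95% Wilson intervals and limits for a count of 0 (3 counts of the total), which cover counting error only. GC was taken within 100 bp of the summit, and repeats as the share of 30-base words of the peak found more than once in the genome. Replicate values come from each replicate's own ranked list. No test was made, since there is 1 group of 2 replicates. The scripts were tested on simulated data. Named are the 5 peaks with the highest signal in each of 4 regions, which include the 5 piRNA-gene peaks that overlap the joint thresholded list. Of the genes of the piRNA pathway, prg-1, prde-1 and snpc-4 were named by rule, and tofu-4, parn-1 and henn-1 were chosen after their values were seen. The peaks and lists were chosen with earlier results of these data known. Alternatives were other distances, exclusions, lists and limits, and, chosen after seeing the data, GC classes and gene places.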

Additional observations from a re-analysis of the deposited data

How the results depend on the processing

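The 2 replicates, a single group, a possible control not analysed here and an unstated signal scale limit these comparisons to description, and shares past the IDR limit rest on few peaks. The ratio of cluster peaks to other chromosome IV peaks stayed below 1 in all alternatives tried except the middle and upper GC classes. That to piRNA-gene peaks elsewhere also passed 1 among exon peaks (1.04) and peaks between genes (1.05) of the joint list. In both places the replicates lay on opposite sides of 1. In the middle GC class of the joint list these ratios reversed to 1.01 and 1.09, and in the upper class to 1.04 and 1.10. In replicates 1 and 2 the ratio to piRNA-gene peaks elsewhere was 1.00 and 1.03 in the middle class, and 1.03 and 0.958 in the upper. Cluster medians of the joint list were 18.0, 23.0 and 28.9 in the lower, middle and upper class. The joint ratio to other chromosome IV peaks was 0.979 in the lower. With summits within 100 bp there were 872 peaks, a cluster median of 18.7, ratios of 0.822 (other peaks) and 0.976 (piRNA-gene peaks elsewhere) and 2 past the limit. Within 500 bp there were 2961, with ratios of 0.912 and 0.961. Without peaks within 1 kb of a protein-coding start there were 1221, with a ratio to those elsewhere of 0.955 and 3 past the limit. Keeping the strongest of overlapping peaks gave a cluster median of 21.4 and a ratio to other peaks of 0.874. Without repeated sequence the ratios were 0.877 and 0.959, with 3 past the limit, and with peaks near short RNA genes kept the ratio to those elsewhere was 0.973. It was 0.944 against the rest of chromosome IV alone. Against other peaks inside the windows the ratio was 0.871, and by place it was 0.940 in exons, 0.901 in introns and 0.913 between genes. At an IDR of 0.05, 19 of the 1912 peaks passed, beside 2.58% of all ranked peaks. Single replicates gave 942 to 1019 peaks, cluster medians of 15.6 to 16.5, ratios of 0.937 to 0.949 and 0.986 to 0.991, and 0 to 1 past the limit. The cause of these changes was not tested. No paired analysis was possible because there is only 1 group.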
